A study of Mus musculus with 47 samples.

Results

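The genes described here encode the subunits of the mitochondrial respiratory chain and of ATP synthase that are made from nuclear DNA. They were picked by symbol, as RefSeq mRNAs named Ndufa, Ndufb, Ndufc, Ndufs or Ndufv with a digit, Ndufab1, Sdha to Sdhd, Uqcr, Cox4 to Cox8 or Atp5, and each gene was represented by its best covered transcript. The rule found 85 of the 18913 genes in the files: 36 of complex I, 4 of complex II, 8 of complex III, 20 of complex IV and 17 of complex V. The rule itself used symbols and coverage, and no test result. Of the 85 genes, 74 had a mean of at least 1000 T positions covered by reads per library (35, 4, 8, 12 and 15 by complex). The 11 below that limit were Ndufs5, Cox4i2, Cox6a2, Cox6b2, Cox7a1, Cox7b2, Cox8b, Cox8c, Ndufa4l2, Atp5g2 and Atp5j. Ndufs5 and Atp5j averaged 1.96 and 2.17 reads per library. Of the 50-base words in the last 200 bases of their mRNAs, 24.5% and 25.2% were shared with another gene. Multimapped reads were not counted, and whether these low counts reflect low expression was not tested.

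Oxidative phosphorylation passes electrons from NADH (complex I) and succinate (complex II) through ubiquinone to complex III, and from there through cytochrome c to complex IV, which reduces oxygen. Complexes I, III and IV pump protons, and complex V uses the gradient to make ATP. Most subunits are encoded in the nucleus and imported, a few are made inside the mitochondrion from mitochondrial DNA, and neurons draw most of their ATP from this pathway.

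The study asked how RNA synthesis and decay change when P19 cells, a male mouse embryonal carcinoma line, become neurons. Undifferentiated cells (D0) were compared with cells kept for 6 days in neural medium with 500 nM retinoic acid (D6). RNA was labeled with 4-thiouridine (4sU), a uridine analog that is read as C in place of T after alkylation, at 20 µM in D0 and 500 µM in D6, so that dose and state cannot be told apart. The anabolic assay sampled cells during labeling, and its first time point had no 4sU. The catabolic assay labeled cells for 15 h, then moved them to 10 mM UTP (the chase) and sampled them from 0 to 9 h. Both assays had 4 time points in both states, with 3 libraries each except 2 at the third catabolic time point of D6, 47 libraries in all. The study describes the libraries of a group as biological replicates.

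The libraries held 1489528 to 11677046 reads on 3′ UTRs, and 460726 to 3697490 covered T positions on the 85 genes. The states could be told apart by markers: the summed level of 12 neuron markers went from 701 to 1005 CPM (reads scaled to the same total in each library) in D0 to 8044 to 8774 CPM in D6, and that of 11 pluripotency markers from 1282 to 2494 CPM to 455 to 666 CPM. Of these markers, 11 of 12 neuron genes tested rose and 4 of 6 pluripotency genes tested fell, whereas Sox2 did not pass the test in the libraries without 4sU. Of 7 neural progenitor markers 2 rose, of 3 glia markers tested 0 changed (4 of 8 listed were at 0 reads in D0 and 5 in D6), and of 3 mesoderm and endoderm markers tested 1 fell. In such bulk samples fewer cells of a type and less RNA per cell cannot be told apart.

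The 3′ UTRs, over which reads were counted, were short in these genes. The median length of the 74 better covered members was 146 bases, against 1132 bases over 9174 genes with the same coverage, and 67.6% of the members against 8.95% of the genes were under 200 bases. The share of T was alike, with a median of 29.03% in the members and 29.5% in the genes. The sequence could be matched for 60 of the 74 members (81.1%) and for 6982 of the 9174 genes (76.1%), and the share over all genes covers matched genes alone. Elements known to mark short-lived mRNAs were looked for on the transcribed strand. The AU-rich pentamer ATTTA was in 33.3% of the members and in 69.0% of the genes, and TATTTAT, which contains it, in 3 of 60 members (5.0%) against 29.7%. The Pumilio element TGTANATA was in 1 of 60 members (1.67%) against 27.1%. These shares moved with length. Among 3′ UTRs under 200 bases, ATTTA was in 16.3% of 43 members and 18.7% of 701 genes, TATTTAT in 0 members and 5.14% of the genes, and the Pumilio element in 2.33% and 6.42%. Per 1000 bases the order for ATTTA turned with length, with 2.76 in all matched members against 1.86 in the genes, and 1.43 against 1.83 under 200 bases. That for TATTTAT turned as well, with 0.373 in all matched members against 0.302 in the genes, and 0 against 0.484 under 200 bases. Of the 5 TATTTAT matches in the members, 3 were in Ndufv2, a subunit of the NADH side of complex I, and 2 of these overlapped. The following stretches are shown because they are among the few such elements in the group, with the element in capitals. Uqcrc2 encodes a core protein of complex III (3′ UTR at chr7:120659105-120659523, plus strand of mm10, element at base 206 of 419), Ndufs4 an accessory subunit of the NADH side of complex I (chr13:114287795-114288762, minus strand, base 54 of 968) and Ndufs3 a core subunit of its quinone side (chr2:90894636-90894709, minus strand, base 50 of 74).
Uqcrc2, TATTTAT: tcagcaagTATTTATtaaatgct
Ndufs4, TATTTAT: ctgtgcacTATTTATagtccatg
Ndufs3, Pumilio: aggttgtcTGTAAATAaactccaa
After 9 h of chase, Uqcrc2 kept 60.99% of its conversion rate in D0 and 27.8% in D6, Ndufs4 72.2% and 39.02%, and Ndufv2, whose rate without 4sU in D0 was 0.745%, 84.4% and 20.03%. Ndufs3 kept 19.9% and 17.9%, and rested on few T positions (a mean of 1645 covered per library at the start of the D0 chase) and shared 51.0% of the 50-base words in the last 200 bases of its mRNA with other genes. Uqcrc2 shared 100% of these words, and Ndufs4 0%.

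Nuclear respiratory factor 1 (NRF1) is a transcription factor known to bind promoters of respiratory chain genes. Its core site, the letters GCGCA, any base and GCGC, searched on both strands from 250 bases before to 50 after the start site, was in 17 of the 69 members with a RefSeq promoter (24.6%) and in 12.8% of 7422 genes. AAGATGGC, the core of the YY1 site, was in 14.5% against 6.17%, and the ETS core CCGGAAG in 24.6% against 22.5%. The 7422 genes all had at least 1000 covered T positions, whereas the 69 members were taken without that limit. Members below it with a match were Ndufs5 and Atp5g2 (NRF1) and Atp5j (ETS and YY1). A match is a description of the letters and not a bound site. The 3 promoters below (RefSeq, GRCm38.p6, printed in the direction of the gene with the NRF1 core in capitals) belong to genes whose label is described further on. They lie at chr2:73911297-73911322 (Atp5g3, minus strand), chr5:115349103-115349128 (Cox6a1, minus strand) and chr13:74350278-74350303 (Sdha, minus strand).
Atp5g3: gccgcaccGCGCTTGCGCgcccagcc
Cox6a1: ggaacgggGCGCATGCGCgctctcgc
Sdha: ggcgtgttGCGCAGGCGCagaatctt

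The read levels of the group changed little between the states. Summed over the 85 genes, the libraries without 4sU held 11778, 16527 and 11718 CPM in D0 and 12220, 13013 and 12305 CPM in D6. The D6 values lay within the D0 range, and the second D0 library stood apart from the others of its group. Complex V, the ATP synthase, came to 3379, 4324 and 3656 CPM in D0 and 3055, 3149 and 3065 CPM in D6, without overlap. Complex IV, cytochrome c oxidase, came to 2438, 3225 and 2287 CPM in D0 and 2845, 3033 and 2891 CPM in D6, within the D0 range. After 15 h of 4sU the whole group came to 13879, 16855 and 13329 CPM in D0 and 13534, 13045 and 12099 CPM in D6, and the second D0 library was again the highest. Complex V then came to 4186, 4334 and 3981 CPM in D0 and 3413, 3384 and 3024 CPM in D6, again without overlap. Complex III came to 2085, 2561 and 1745 CPM in D0 and 1536, 1428 and 1342 CPM in D6, also without overlap. Without 4sU complex III did overlap, with 1478, 2574 and 1642 CPM in D0 and 1318, 1514 and 1412 CPM in D6. Complexes I, II and IV overlapped between the states after 15 h of 4sU.

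Gene by gene, edgeR's quasi-likelihood test of the libraries without 4sU (D6 against D0, 76 members tested, adjusted p under 0.05) found 1 member higher and 1 lower. Over all 16091 transcripts tested, 7.74% were higher and 5.4% lower. The median log2 change was -0.06 in the members and -0.04 over all transcripts, with 35 of 76 members above 0. Its sign was not stable, since without D0 replicate 56 it was 0.11 with 44 above 0, and without D0 replicate 57 it was -0.16 with 28 above 0. With 1 transcript per gene it was 0.03. DESeq2 called 1 member higher and 5 lower, against 11.2% and 8.69% of all transcripts.
Ndufv3, a flavoprotein subunit at the NADH side of complex I, stood at 48.5, 53.2 and 35.7 CPM in D0 and at 131, 92.8 and 100.2 CPM in D6. All D6 libraries lay above all D0 libraries, and Ndufv3 rose (log2 change 1.24, SE 0.35, edgeR adjusted p = 0.041). After 15 h of 4sU its levels were 88.2, 103 and 50.7 CPM in D0 and 127, 124 and 85.6 CPM in D6, which overlapped.
Atp5b, the catalytic beta subunit of ATP synthase, stood at 467, 408 and 459 CPM in D0 and at 222, 195 and 287 CPM in D6. The groups did not overlap, and Atp5b fell (log2 change -0.92, SE 0.25, edgeR adjusted p = 0.033). After 15 h of 4sU it stood at 579, 291 and 477 CPM in D0 and 263, 309 and 386 CPM in D6, which overlapped. Leaving out 1 library ended the call in 5 of 6 cases (all but D0 replicate 56) for Ndufv3 and in 4 of 6 (all but D0 replicate 56 and D6 replicate 39) for Atp5b, with log2 changes from 1.08 to 1.36 and from -1.08 to -0.80.

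In the libraries taken after 15 h of 4sU, 0 of 77 members were higher (7.33% of all 15655 transcripts were) and 2 were lower (7.55% were), in edgeR's test. At an unadjusted p under 0.05 there were 3 higher and 8 lower (14.3% of the members in all, against 27.4% of all transcripts). DESeq2 called 1 higher and 4 lower (6.49% of the members in all, against 10.8% of all transcripts higher and 10.3% lower).
Ndufa10, an accessory subunit of complex I, stood at 431, 587 and 454 CPM in D0 and at 262, 200.001 and 295 CPM in D6. The groups did not overlap, and Ndufa10 fell (log2 change -0.96, SE 0.24, edgeR adjusted p = 0.021). Without 4sU it stood at 342, 736 and 219.9 CPM in D0 and 205, 259 and 209 CPM in D6, with a like log2 difference of -0.95 that did not pass the test (edgeR adjusted p = 0.157).
Uqcr10, a small subunit of complex III, stood at 339.7, 578 and 360 CPM in D0 and at 224.1, 169.9 and 172 CPM in D6. It fell as well (log2 change -1.17, SE 0.27, edgeR adjusted p = 0.014), and without 4sU its groups did not overlap either (271, 635 and 334 CPM against 179, 227 and 218 CPM, log2 -0.99, edgeR adjusted p = 0.078). Leaving out 1 library ended the call in 3 of 6 cases for Ndufa10 (D6 replicates 7 and 8, D0 replicate 27) and in 2 of 6 for Uqcr10 (D6 replicates 8 and 9).

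By complex, the members of complex V leaned down in both sets, with 13 of 16 below 0 without 4sU (median log2 -0.43) and 14 of 16 below 0 after 15 h of 4sU (median -0.38). Of all genes tested, 47.2% lay above 0 without 4sU and 47.6% after 15 h of 4sU. Complex III, which takes electrons from ubiquinol, had 7 of 8 members below 0 in both (medians -0.27 and -0.50). Complex I had 20 of 35 above 0 without 4sU and 18 of 35 after 15 h of 4sU (medians 0.07 and 0.04). The 13 nuclear subunits of complex IV that were tested had a median of 0.09 without 4sU, and 14 had -0.11 after 15 h of 4sU. The 4 subunits of succinate dehydrogenase (complex II) had medians of -0.55 and 0.41, so that their direction differed between the sets. Among them the flavoprotein Sdha stood at 122, 210.3 and 117 CPM in D0 and 76.5, 79.5 and 38.9 CPM in D6 without 4sU, and at 163, 124 and 133 CPM against 95.7, 57.5 and 50.5 CPM after 15 h. It did not overlap in either set but missed the threshold in both (log2 -1.21 and -1.04, edgeR adjusted p = 0.068 and 0.065).

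**Figure D1:**
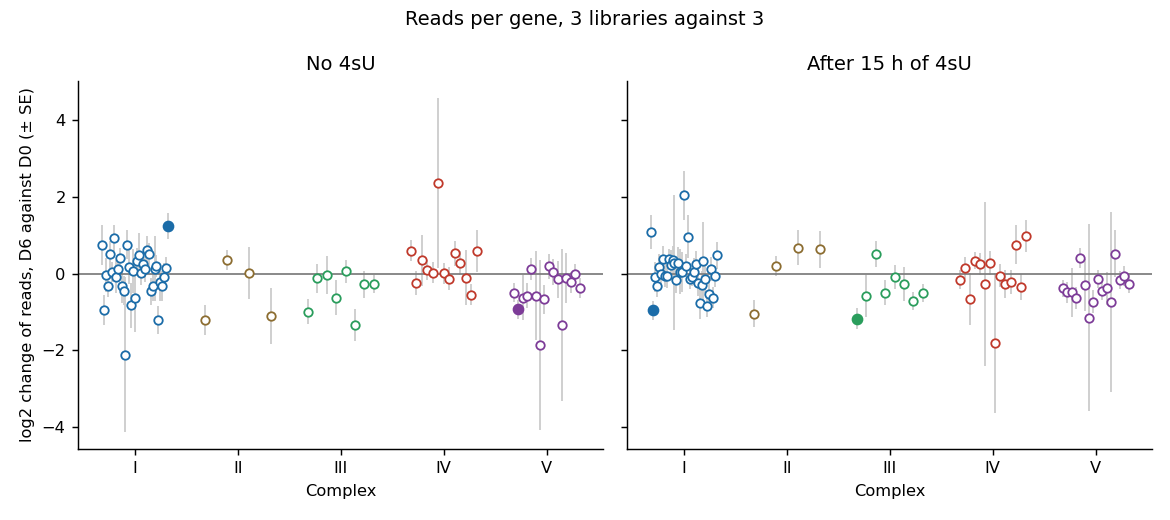
Change of the reads of each member between D6 and D0 (vertical axis, log2 with standard error as gray bars) by complex (horizontal axis), without 4sU on the left and after 15 h of 4sU on the right. Filled points passed an edgeR adjusted p under 0.05: Ndufv3 (1.24) and Atp5b (-0.92) on the left, Ndufa10 (-0.96) and Uqcr10 (-1.17) on the right.

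Several subunits of complexes IV and V exist as paralogs, of which some are known from heart, muscle, testis or lung. In each family but Cox7a, 1 paralog took nearly all reads. Over the 47 libraries Cox4i1, the ubiquitous subunit 4, had 241896 reads and Cox4i2, known from lung and hypoxia, 13 reads in 3 libraries. Cox6a1 had 107940 reads and the heart and muscle form Cox6a2 25, all in 1 library. Cox8a had 82972 reads, while Cox8b and Cox8c had 0 in all 47 libraries.
For Cox8b and Cox8c, 3 reads (the limit that a count of 0 allows) correspond to 0.110 CPM over the D0 libraries without 4sU and 0.137 CPM over those of D6. Cox7a2 had 151241 reads, Cox7a2l, which is known to join complexes III and IV, 51073, and the heart and muscle form Cox7a1 783. Cox7b had 59317 and the testis form Cox7b2 27.
Cox6b1 had 76872 reads and the testis form Cox6b2 2333, with 6.04, 0 and 0 CPM in D0 and 19.0, 0.607 and 11.9 CPM in D6 without 4sU. These overlapped, as did the 15 h libraries (4.77, 0.339 and 4.59 CPM in D0, 4.17, 3.89 and 0 CPM in D6). The c ring of ATP synthase is made from 3 genes for the same mature protein. Atp5g3 had 202352 reads, Atp5g1 6603 and Atp5g2 565. Of the 50-base words near its end, Atp5g3 shared 0% with other genes, Atp5g1 21.9% and Atp5g2 100%.
Ndufa4, once counted with complex I and now with complex IV, had 28369 reads. Its paralog Ndufa4l2 had 87 reads in 2 libraries, both D6. With reads in so few libraries, no difference between the states was read from Ndufa4l2.

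**Figure D2:**
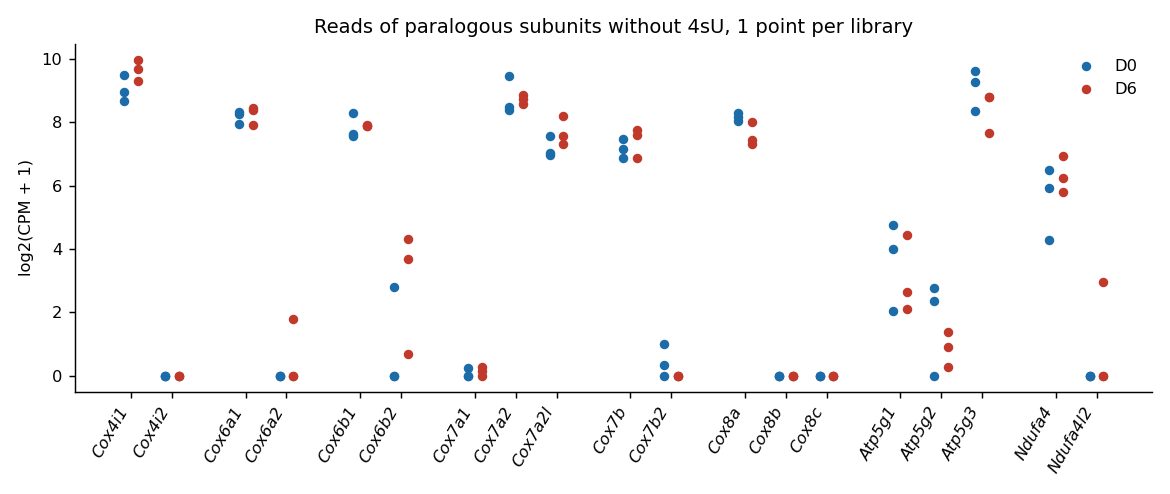
Level of each paralogous subunit in the 6 libraries without 4sU (log2 of CPM + 1, 1 point per library, D0 blue and D6 red), grouped by family. The leading paralog of each family lies highest in both states, with Cox7a2l the nearest to its leader Cox7a2 and Cox8b and Cox8c at 0.

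The conversion rate, that is the T>C conversions over all covered T positions, measured the label. Without 4sU it was 0.101% ± 0.021 (SD, n = 3) in the members in D0 and 0.103% ± 0.027 in D6. After 15 h of 4sU it was 1.08% ± 0.03 in D0, against 1.42% ± 0.06 for all mRNA transcripts pooled. The ratio to the pooled rate was 0.76 ± 0.04 in D0 and 1.00 ± 0.06 in D6, where the members reached 4.66% ± 0.42. Among the complexes the D0 ratio went from 0.70 ± 0.07 (complex III) to 0.84 ± 0.17 (complex II), within each other's spread.

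The label of these genes outlasted that of the transcriptome. After 9 h of chase the members kept 66.0% ± 2.4 of the rate at its start in D0 (SD, n = 3 libraries), against 27.9% ± 1.2 for the pooled transcripts. In D6 they kept 43.7% ± 3.1, against 18.6% ± 1.5. The values of the members and of the pooled transcripts did not overlap in either state. At the second time point (1 h by the labels, 3 h by the methods) the label had hardly changed, with 105.3% ± 3.6 in D0 and 103.0% ± 8.1 in D6 for the members. At the third (3 h or 6 h) the members stood at 100.4% ± 3.2 in D0 and 69.9% ± 0.4 (n = 2) in D6, and the pooled transcripts at 72.3% ± 1.6 and 48.6% ± 1.0.

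In D6 complex IV lay above and complex II below the other complexes, which lay within each other's spread. In D0, 67.8% ± 1.6 was kept by complex I, 58.6% ± 9.5 by complex II, 66.8% ± 6.8 by complex III, 60.4% ± 7.6 by complex IV and 69.3% ± 4.1 by complex V (SD, n = 3). In D6, complex IV kept 65.0% ± 4.1, while complex I kept 37.8% ± 5.0, complex III 42.6% ± 9.1 and complex V 39.4% ± 6.8. Complex II kept 14.8% ± 6.4 in D6, which overlapped the pooled transcripts. Complex IV was the highest in all 3 libraries of D6 (lowest 60.3%, highest of complexes I, III and V 53.1%). The 5 groups differ in depth and share libraries, and their difference was not tested as a group.

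**Figure D3:**
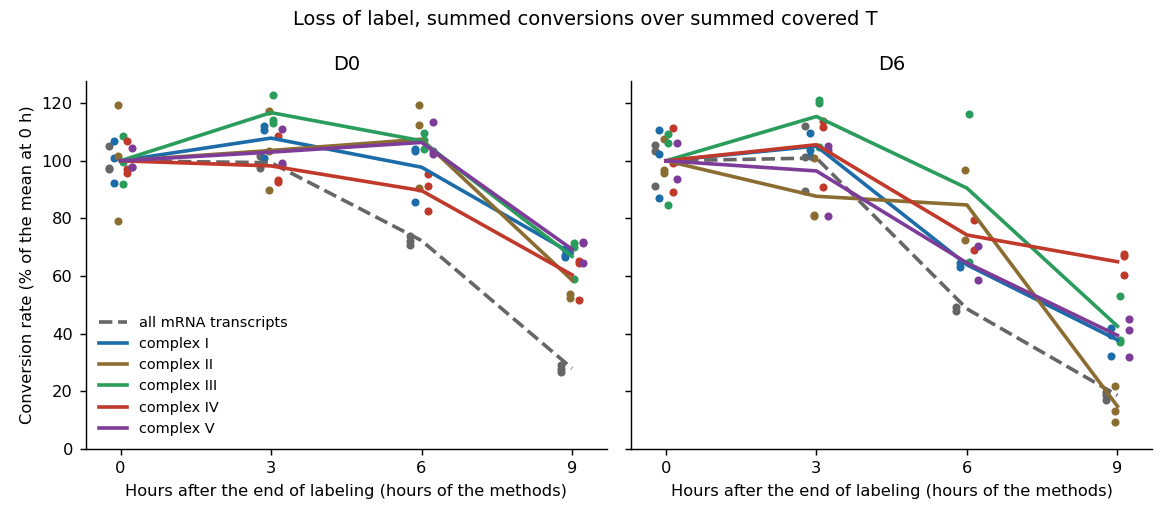
Conversion rate during the chase as a percentage of the mean rate at its start (vertical axis) against hours after labeling as the methods give them (horizontal axis), for D0 and D6. Lines join means, points are libraries, and the dashed gray line is all mRNA transcripts pooled. At 9 h each complex lies above the pooled 27.9% in D0, and in D6 complex IV stays at 65.0% while complex II reaches 14.8%.

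For each member, edgeR's quasi-likelihood test asked whether its conversions fell less or more over the 9 h than those of the pooled transcripts of the same libraries. The result is called retained label here, and 0 on its log2 scale is the pooled rate. In D0, 23 of 74 members were higher, against 2.62% of all 13791 transcripts tested, and 0 were lower, against 2.5%. At an unadjusted p under 0.05, 40 were higher and 0 lower (6.10% and 12.1% of all transcripts), and DESeq2 called 31 higher and 0 lower (3.72% and 7.66%). The median was 1.31 in the members and -0.68 over all transcripts, and 72 of 74 members lay above 0.
In D6, 11 of 73 members were higher, against 0.961% of 12901 transcripts, and 0 were lower, against 0.163%. At an unadjusted p under 0.05, 31 were higher and 0 lower (3.91% and 11.8% of all transcripts), and DESeq2 called 25 higher and 0 lower (2.36% and 7.15%). The median was 1.08 in the members and -0.65 over all transcripts, and 63 of 73 lay above 0. With centring on the median transcript in place of the pooled rate, 46 members were higher in D0 and 32 in D6. Of all transcripts, 8.38% in D0 and 4.04% in D6 were then higher. Per library, 50 of 74 members in D0 and 38 of 73 in D6 lay above the pooled transcripts in all 3 libraries, and 1 and 4 below in all 3. Of all genes tested, 11.1% in D0 and 6.86% in D6 lay above in all 3, and 45.5% and 39.5% below.

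Coverage and the length of the 3′ UTR moved with these values. Among transcripts with at least 10000 covered T positions, with the calls of the test above, 22 of 51 members (43.1%) were higher in D0 against 6.76% of all transcripts, and 11 of 43 (25.6%) in D6 against 3.60%. Refitted on these transcripts alone, the test called 20 of 51 members in D0, against 6.82% of all, and 18 of 43 in D6, against 5.08%. Among genes with a 3′ UTR under 200 bases (a split chosen after the values were seen), 12 of 50 members were higher in D0 (24.0%, median 1.31), against 69 of 771 other genes (8.95%, median 0.07). Among longer ones, 11 of 24 members (45.8%, median 1.29) were higher in D0 against 1.96% of 7957 other genes (median -0.71). In D6 the shares were 9 of 51 (17.6%) against 4.38% under 200 bases, and 2 of 22 (9.09%) against 0.581% above. The share higher and the median were larger in the members than in other genes on both sides of the split in both states. Single values overlapped, with 44 of 51 members and 328 of 662 other genes under 200 bases above 0 in D6. The part of length in these values was not tested. How far the pooled rate itself is set by a few abundant transcripts was not tested.

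In complex I, 9 of 35 members were higher in D0 and 2 of 34 in D6. Ndufa12, an accessory subunit of the NADH side, had conversion rates of 0.949%, 0.948% and 0.939% at the start of the D0 chase and of 0.688%, 1.12% and 1.02% at 9 h. The D0 rates overlapped, so that the label did not fall beyond the spread, and the retained label was higher than that of the pooled transcripts (log2 1.84, SE 0.42, edgeR adjusted p = 0.001).
In D6 Ndufa12 went from 6.10%, 8.45% and 4.29% to 1.98%, 1.47% and 1.72%. All rates at 9 h were below all rates at the start, with 27.4% kept, and the gene was not past the threshold (log2 0.58, edgeR adjusted p = 0.457). Of the last 200 bases of Ndufa12, 25.8% of the 50-base words were shared with other genes.
Ndufa7, the best covered of complex I (3′ UTR at chr17:33838190-33838316), had 0.934%, 0.993% and 1.05% at the start and 0.693%, 1.198% and 0.501% at 9 h in D0. In D6 it had 5.36%, 4.57% and 3.57% at the start and 2.44%, 2.60% and 1.77% at 9 h. It overlapped in D0 and not in D6, and the retained label was higher in both (log2 1.54 and 1.44, edgeR adjusted p = 0.002 and 0.018).
Ndufa1, an accessory subunit of the membrane arm, was also higher in both, with 0.668%, 1.57% and 0.869% before and 0.699%, 1.64% and 0.871% after the chase in D0, and 3.62%, 3.43% and 3.98% before and 4.23%, 3.88% and 2.01% after it in D6. The values before and after overlapped in both states (log2 1.92 and 2.28, edgeR adjusted p = 0.046 and 0.037). Its rate without 4sU was 0.461% in D0 and 0.548% in D6, several times the members' summed rate.
Ndufa3, an accessory subunit, had the highest retained label of the called members in D0 (log2 2.58, edgeR adjusted p = 0.042), but its rate without 4sU was 1.60%, 0.0303% and 0.934%. That reaches the range of its labeled libraries (0.684%, 1.26% and 0.492% at the start of the chase), so that its conversions without 4sU cannot be told apart from label. The rate without 4sU was above 0.4% in 5 of the 23 members higher in D0, among them Ndufa1 and Ndufa3, and in 1 of the 11 in D6 (Ndufa1). The other 18 had at most 0.201% and kept 52.9% to 99.7% of their label.

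In complex II, 1 of 4 members was higher in D0 and 0 of 4 in D6 (0 at an unadjusted p under 0.05). Sdhb, the iron-sulfur subunit of succinate dehydrogenase (3′ UTR at chr4:140979103-140979193), had 0.272%, 1.09% and 1.26% at the start of the D0 chase and 0.489%, 0.603% and 0.875% at 9 h. It kept 74.97% in D0, where the groups overlapped (log2 1.42, edgeR adjusted p = 0.008). In D6 it went from 3.96%, 4.78% and 4.81% to 0.641%, 0.465% and 1.08%, without overlap, and kept 16.2% (log2 -0.18, edgeR adjusted p = 0.887). The other 3 subunits kept 32.7% (Sdhd), 43.6% (Sdha) and 63.01% (Sdhc) in D0, and 13.97%, 8.70% and 21.0% in D6.

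In complex III, 3 of 8 members were higher in D0 and 1 of 8 in D6. Uqcrh, the hinge protein that helps cytochrome c bind (3′ UTR at chr4:116066965-116067139), had 0.737%, 0.733% and 0.879% at the start and 0.534%, 0.667% and 0.668% at 9 h in D0. The D0 rates at 9 h lay below all those at the start, although 79.6% was kept (log2 1.51, edgeR adjusted p = 9.2e-05). In D6 it had 3.90%, 5.68% and 2.65% at the start and 1.56%, 1.92% and 2.65% at 9 h, with 50.2% kept (log2 1.48, edgeR adjusted p = 0.055). Uqcrq, a small subunit near the ubiquinone site, was higher in both states (log2 1.26 and 1.82, edgeR adjusted p = 4.2e-04 and 0.004) and kept 67.1% in D0 and 65.2% in D6. Uqcr10 was the lowest but one of the called members in D0 (log2 1.02, edgeR adjusted p = 0.044), and lost the call in 5 of 6 fits that left out 1 library.

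In complex IV, 4 of 12 members were higher in D0 and 5 of 13 in D6. Cox7a2, a small subunit and the best covered of the complex (3′ UTR at chr9:79755241-79755546), had 0.717%, 0.877% and 0.972% at the start and 0.559%, 0.841% and 0.750% at 9 h in D0. In D6 it had 4.13%, 4.89% and 4.65% at the start and 2.88%, 2.38% and 2.49% at 9 h. It kept 83.8% in D0 and 56.6% in D6 and was higher in both states (log2 1.59 and 1.60, edgeR adjusted p = 2.9e-06 and 6.9e-04).
Cox6c, another small subunit, had the highest retained label of the called members in D6, with 5.07%, 4.42% and 3.42% at the start of the chase and 4.86%, 6.70% and 4.53% at 9 h. The rate did not fall over the chase (124.6% of the start), and the log2 value was 2.76 (SE 0.21, edgeR adjusted p = 6.9e-05). In D0 it went from 0.641%, 1.61% and 1.49% to 0.644%, 0.304% and 0.928%, or 50.2%, and did not pass the test (log2 0.84, edgeR adjusted p = 0.215).
Cox4i1, subunit 4, had 2.98%, 2.59% and 2.56% at the start and 2.53%, 1.80% and 1.87% at 9 h in D6, or 76.3% kept (log2 2.03, edgeR adjusted p = 1.6e-04). In D0 it had 1.28%, 0.763% and 0.416% at the start and 0.615%, 0.198% and 0.459% at 9 h, or 51.8% (log2 0.88, edgeR adjusted p = 0.114). Cox6a1 and Ndufa4 had the same order, with 77.6% and 82.0% kept in D6, where both were higher (log2 2.06 and 2.14, edgeR adjusted p = 0.001 and 0.010), and 51.9% and 53.7% in D0, where neither passed. Cox5a, a subunit of the matrix side, was among the 3 lowest called members in D0 (log2 1.13, edgeR adjusted p = 0.025) and shared 68.2% of its end words with other genes.
Cox7a2l was the member furthest below the pooled transcripts in D0. It went from 1.75%, 1.45% and 1.62% to 0.287%, 0.194% and 0.156%, without overlap, and kept 13.2% (log2 -1.08, edgeR adjusted p = 0.350). In D6 it went from 2.73%, 2.73% and 2.37% to 1.18%, 1.91% and 0.961% and kept 51.7% (log2 1.47, edgeR adjusted p = 0.183).

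In complex V, 6 of 15 members were higher in D0 and 3 of 14 in D6. Atp5g3, which makes most of the c ring mRNA and was the best covered member of all (3′ UTR at chr2:73908447-73908693), had 0.660%, 1.47% and 1.37% at the start and 0.594%, 0.445% and 0.815% at 9 h in D0. These overlapped, and 52.9% was kept, which was the lowest retained label of the called members (log2 0.92, edgeR adjusted p = 0.003). In D6 it went from 4.85%, 5.04% and 4.69% to 1.64%, 1.39% and 1.36% and kept 30.1% (log2 0.69, edgeR adjusted p = 0.194).
Atp5j2, the f subunit of the membrane part (3′ UTR at chr5:145183706-145183838), had 0.792%, 0.958% and 0.750% at the start and 0.985%, 0.760% and 0.622% at 9 h in D0, which overlapped. It kept 94.7% (log2 1.77, edgeR adjusted p = 1.1e-09). In D6 it went from 4.55%, 4.72% and 4.37% to 2.06%, 2.35% and 1.17%, without overlap, kept 40.8% and was still higher than the pooled transcripts (log2 1.12, edgeR adjusted p = 0.043).
Atp5mpl, a small proteolipid of the membrane part, was higher in both states as well (log2 1.36 and 1.53, edgeR adjusted p = 0.009 and 0.045). Atp5b, whose reads fell without 4sU, kept 86.9% in D0 (log2 1.63, edgeR adjusted p = 1.6e-06) and 42.3% in D6 (log2 1.17, edgeR adjusted p = 0.106).

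Altogether 6 members were higher in both states: Ndufa1, Ndufa7, Uqcrq, Cox7a2, Atp5j2 and Atp5mpl. They were 26.1% of the 23 higher in D0 and 54.5% of the 11 higher in D6. The share of all transcripts higher in both states is not given here, so these 6 are named as a description. The tests of the states shared no library. Without 1 library the count of 23 went to 11 (D0 replicate 34 of the 9 h chase), 12 (replicate 36), 13 (replicate 26 of the chase start) or 15 (replicates 25 and 27), and the count of 11 to 6 (D6 replicates 7, 8 and 9 of the chase start) or 7 (replicate 16 of the 9 h chase). With the rate without 4sU subtracted and limma in place of edgeR, 0 members were called in either state, with 62 of 74 above 0 in D0 and 56 of 73 in D6. Of all transcripts, limma called 0.0653% higher and 2.52% lower in D0, and 0% either way in D6. In D0, 8 calls held in each of the 6 fits that left out 1 library (Ndufa7, Ndufa12, Uqcrh, Uqcrq, Cox7a2, Atp5b, Atp5j2 and Atp5pb), and in D6 6 calls did (Uqcrq, Cox4i1, Cox6a1, Cox6c, Cox7a2 and Atp5e).

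**Figure D4:**
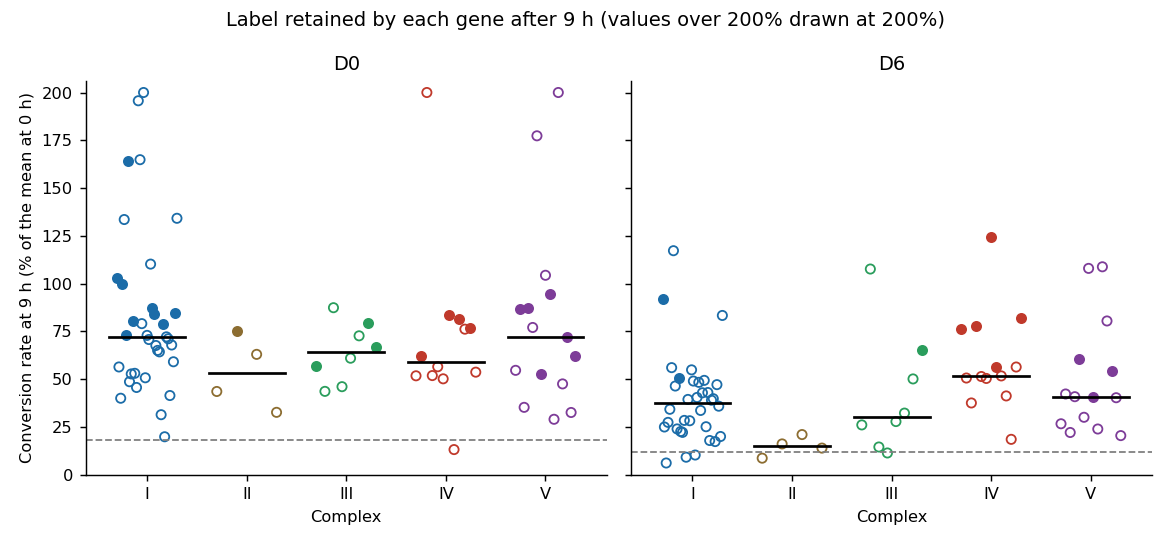
Conversion rate after 9 h of chase as a percentage of the mean rate at its start (vertical axis), 1 point per tested member, by complex (horizontal axis), in D0 and D6. Filled points passed an edgeR adjusted p under 0.05 against the pooled transcripts, and black lines are medians of the complexes. The dashed lines mark the medians over all genes of 18.3% in D0 and 11.7% in D6. These lie below the medians of 69.3% and 39.6% over the 74 better covered members, tested or not.

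The change of retained label between the states was tested as an interaction of state and time. Of 74 members, 0 were called (0.043% of 13967 transcripts were called in each direction). At an unadjusted p under 0.05 there were 4 higher and 4 lower in D6, or 10.8% of the members, near the 9.70% of all transcripts, and DESeq2 called 1 higher (0.637% of all transcripts). The difference seen between the states in single members above is thus not past the threshold in edgeR's test. The median differences were 0.39 in complex IV, with 9 of 12 above 0, and -1.30 in complex II, with 4 of 4 below 0. They were -0.30 in complex I, -0.52 in complex III and -0.23 in complex V, and -0.03 over all transcripts. The median over all transcripts was not stable. It was -0.46 without D6 replicate 16, 0.17 without D0 replicate 36, 0.21 with DESeq2 and -0.38 when centred on the median transcript. Leaving out 1 library took the median over the members from -0.44 to -0.13.
These 8 members are named as a description, since their share is near that of all transcripts. The higher ones were the complex IV members Cox6c (log2 1.92, edgeR adjusted p = 0.145), Cox7a2l (2.56, 0.412), Cox6a1 (1.17, 0.434) and Cox4i1 (1.16, 0.449). The lower ones were Sdhb (-1.60, 0.449), Ndufa12 (-1.26, 0.494), the stalk subunit Atp5pb (-1.02, 0.493) and Atp5g1, which had conversions near 0.

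**Figure D5:**
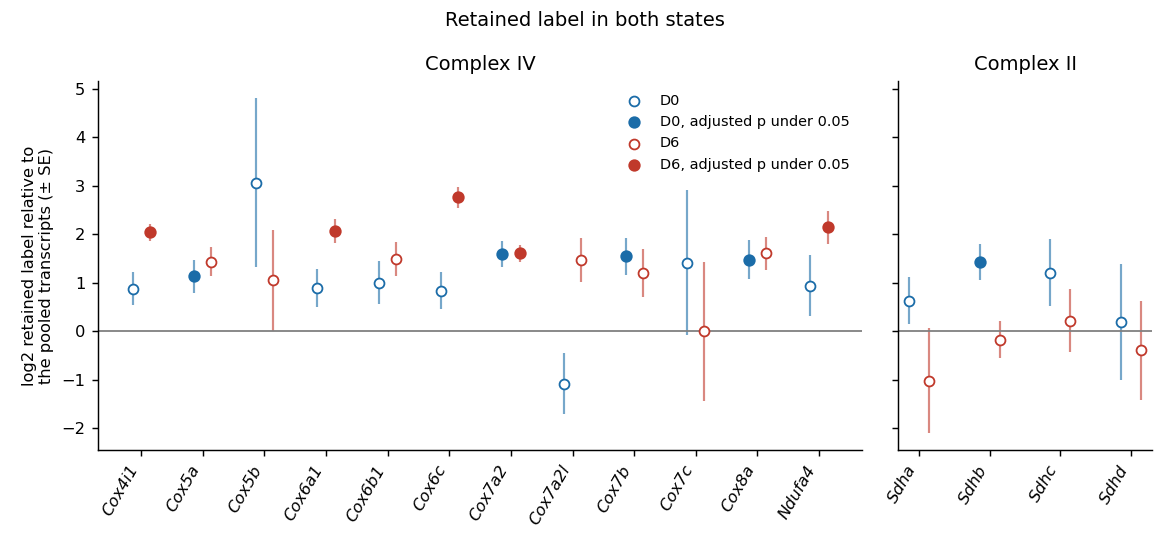
Retained label relative to the pooled transcripts (vertical axis, log2 with standard error) of the complex IV and complex II members tested in both states, D0 in blue and D6 in red, filled where the edgeR adjusted p was under 0.05. Cox6c (0.84 in D0, 2.76 in D6) and Cox7a2l (-1.08 and 1.47) show the widest gaps of complex IV among the members with an unadjusted p under 0.05, and Sdhb (1.42 and -0.18) lies the other way.

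The label taken up in 9 h of the anabolic assay, relative to that after 15 h, was lower in the members than in the pooled transcripts. Summed, it was 67.6% ± 5.2 of the 15 h rate in D0 and 65.9% ± 6.6 in D6 (SD, n = 3), against 87.9% ± 3.6 and 78.0% ± 12.9 for the pooled transcripts. The member and pooled values did not overlap in D0 and did in D6. Complex IV had 58.6% ± 6.6 in D0 and 49.0% ± 14.3 in D6, and complex V 61.3% ± 3.5 and 67.4% ± 4.6. Complex I had 75.2% ± 8.2 in D0 and 73.4% ± 3.5 in D6, and complex III 75.2% ± 11.5 and 73.7% ± 18.2. Complex II had 76.2% ± 9.9 in D0 and 81.4% ± 10.0 in D6, the latter above the pooled mean but within its spread.
Gene by gene, edgeR's test called 0 of 73 members in D0, 0 of 72 in D6 and 0 of 73 between the states, and 0% of all transcripts were called in each. At an unadjusted p under 0.05 there were 8, 7 and 2 members (10.96%, 9.72% and 2.74%), and 929, 420 and 1003 of all transcripts (6.66%, 3.29% and 7.14%). DESeq2 called 4 members lower in D0 (5.48%, against 0.796% of all transcripts) and 0 in the other comparisons. The member medians were -0.39 in D0 and -0.23 in D6 (log2), with 53 of 73 and 48 of 72 below 0, and all transcripts had medians of 0.12 and -0.10. The 8 members at an unadjusted p in D0 and the 7 in D6 were all below 0, against 2.12% and 2.39% of all transcripts below 0 at that p. Among them Cox4i1 was below in both states (-0.86 and -0.78).
These uptake values use the same 15 h libraries as the retained label, and so a high or low rate there moves both.

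Half-lives were fitted to the catabolic course with the study's limits (R squared over 0.6 and at most 5000 min) and the hours of the methods (0, 3, 6 and 9 h), and the values in minutes depend on these hours. In D0, 3 of 72 members passed (4.17%), against 16.6% of the genes fitted, and in D6 7 of 67 (10.4%), against 21.7%. In D0 they were the complex I subunits Ndufs1 (441 min) and Ndufv1 (902 min), and Cox7a2l (339 min). In D6 they ran from Sdha (197 min) and Sdhc (240 min) over Ndufa8 (289 min), Ndufb9 (377 min), Atp5a1 (389 min) and Atp5pb (389 min) to Atp5b (395 min). With the hours of the labels (0, 1, 3 and 9 h), 4 members passed in D0 and 11 in D6, and the median over the members that passed went from 441 to 465 min in D0 and from 377 to 261 min in D6 (over genes, from 286 to 206 min and from 239 to 149 min). No member passed in both states with either set of hours, so that the states cannot be compared in this way.
With the first and last time points alone, on which labels and methods agree, 12 of 72 passed in D0 (16.7%, against 39.2% of the genes) and 43 of 70 in D6 (61.4%, near the 59.1% of the genes). Then 9 members passed in both, and 8 of them were shorter in D6. How many of the 2245 genes that passed in both were shorter is not given here, so this count describes the members alone. Ndufa10 went from 654 to 270 min, Sdha from 451 to 153 min, Uqcr10 from 660 to 279 min and Atp5pb from 785 to 236 min. Cox7a2l went the other way, from 185 to 568 min. The median over the members that passed was 594 min in D0 and 312 min in D6, against 182 and 171 min over the genes that passed, and these medians cover members with a measurable loss alone.

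Genes that work beside the complexes were described from lists. Counts are to be read against all transcripts, of which 7.74% were higher and 5.4% lower without 4sU, and 7.33% and 7.55% after 15 h of 4sU. Of 49 assembly factors tested without 4sU, 1 was higher and 1 lower. Cox16, which takes part in building complex IV, rose from 15.5, 10.3 and 5.36 CPM to 76.0, 62.5 and 79.8 CPM (log2 2.80, edgeR adjusted p = 0.007), and Cox10, which makes heme for it, fell from 138, 469 and 168 CPM to 70.9, 79.3 and 50.3 CPM (log2 -1.95, edgeR adjusted p = 0.019). After 15 h of 4sU, 0 were higher and 2 lower, Cox10 again (-1.64) and Ndufaf8 (-1.49), a complex I assembly factor.
Of 11 mobile carrier genes (cytochrome c and ubiquinone synthesis) 0 changed without 4sU, and 1 of 10, Coq7, was lower after 15 h (log2 -1.13). Cycs, cytochrome c itself, had a log2 difference of -0.39 (edgeR adjusted p = 0.845). Cyc1 encodes cytochrome c1, a subunit of complex III that the symbol rule does not match. It had 85.2, 77.8 and 73.4 CPM in D0 and 47.2, 40.9 and 41.4 CPM in D6, without overlap but not past the threshold (log2 -0.87, edgeR adjusted p = 0.147).
Of 17 genes of mitochondrial transcription and its regulators 0 were higher and 2 lower. Lrpprc, which stabilizes mitochondrial mRNAs, fell from 348, 378 and 311 CPM to 121, 118 and 134 CPM (log2 -1.48, edgeR adjusted p = 0.003), and Pprc1, a coactivator of NRF1, from 67.4, 75.2 and 80.8 CPM to 22.3, 5.87 and 5.28 CPM (log2 -2.74, edgeR adjusted p = 0.018). Both were lower after 15 h as well, with Polg, among 16 tested. Tfam, which packages mitochondrial DNA, had a log2 difference of -0.59 (edgeR adjusted p = 0.612), and Ppargc1a had too few reads to be tested.
Of 17 genes of the tricarboxylic acid cycle 0 were higher and 2 lower, Pdha1 (log2 -1.70) and Ogdh (-1.28), and after 15 h Pdha1 (-1.81) and Suclg1 (-1.84). Of 6 carrier and channel genes 0 changed without 4sU, and after 15 h the ATP exchanger Slc25a4 was higher (0.96) and Vdac2 (-1.19) and the phosphate carrier Slc25a3 (-0.98) were lower. In retained label, the lists had 1 of 48 (assembly factors, median 0.32), 1 of 11 (mobile carriers, 0.00), 0 of 15 (mitochondrial transcription, -2.61), 4 of 17 (tricarboxylic acid cycle, 0.02) and 2 of 6 (carriers, 0.48) genes higher in D0, and 1 of 15 (mitochondrial transcription) lower, against 2.62% of all transcripts higher and 2.5% lower. In D6, 0 of these lists' genes were higher or lower by edgeR, against 0.961% and 0.163% of all transcripts.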

How the data were processed

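SLAM-seq 3′ end libraries of P19 cells were analysed as deposited. Per the file headers, the authors used SLAMdunk 0.3.3 with mm10 to give, for each 3′ UTR interval, the number of reads, of T>C conversions and of T bases that reads covered (all counts), with known variants masked and 0 multimapped reads counted. The deposited conversion rates (a fraction) and reads in CPM, which the authors computed per interval, were not used. The counts of 39419 intervals were summed per RefSeq transcript. The files name RefSeq transcripts, whereas the methods name GENCODE for the UTRs. Labels give the middle time points as 1 and 3 h and the methods as 3 and 6 h. The labeling is given as 15 h, and as 13 h in the text on normalization.

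Reads were tested with edgeR 4.0.16 (quasi-likelihood, TMM, filterByExpr) in R 4.3.3. Conversions were tested with an offset of covered T times the pooled library rate, where covered T averaged 1000 or more over the fitted libraries. P-values were adjusted over all transcripts (Benjamini-Hochberg, 0.05). DESeq2 1.42.0 and limma 3.58.1 served as alternatives. Scripts were tested on simulated data. The reads carry no molecular identifiers, so that floors of 3 reads cover counting error only. CPM were not divided by length, since 3′ end reads do not scale with it.

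The members and lists were chosen with earlier results of these data known. Named genes were the measured members of paralog families, those called in reads without 4sU, the 3 highest and 3 lowest called in retained label per state, the best covered of each complex, and Cycs, Cyc1, Ppargc1a, Tfam and the extremes of each list. Others (such as Ndufa10, Uqcrq, Sdha, Sdhc, Sdhd, Ndufs3, Ndufs4 and Uqcrc2, and members with an unadjusted p under 0.05) were named after their values were seen. Near-identical copies were looked for in GENCODE transcripts. Of 80 members matched, 8 shared over 50% of the 50-base words in their last 200 bases with other genes, and 55 shared none. The median of their mean reads per library was 247 and 1021. Multimapped reads were not counted, so that members with copies, and sums that hold them, may be counted too low. How far this is so was not tested. The values of 1 gene are not reported here.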

Additional observations from a re-analysis of the deposited data

How the results depend on the processing

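Reads without 4sU gave 1 member higher, which was 0 with all 47 libraries in the fit, and 1 lower, which was 5 with DESeq2 and 2 with no filter, with upper quartile scaling and with all libraries. Leaving out 1 library gave 0 to 2 in each direction. After 15 h of 4sU, DESeq2 and 1 transcript per gene gave 1 higher in place of 0, DESeq2 gave 4 lower in place of 2, and leaving out 1 library gave 0 to 4 lower. Retained label in D0 (23 higher) gave 46 when centred on the median transcript, 0 with background subtraction and limma, and 11 to 23 without 1 library. In D6 (11 higher) it gave 25 with DESeq2, 18 with a minimum of 10000 covered T positions, 32 when centred on the median transcript, 0 with background subtraction and limma, and 6 to 12 without 1 library. Centring on the median transcript moved the median over all transcripts from -0.68 to 0.63 in D0 and from -0.65 to 0.52 in D6, and that of the members to 2.87 and 2.28. Ndufv2 reversed in D0 under background subtraction and limma (log2 -0.29, adjusted p = 0.963). Its rate without 4sU was 0.745% in D0. Between the states, DESeq2 gave 1 member higher in place of 0, and leaving out 1 library gave 0 to 1. DESeq2 gave 4 members lower in D0 uptake in place of 0.

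Half-lives were accepted for 3 members in D0, 7 in D6 and 0 in both. With the first and last time points alone the numbers were 12, 43 and 9, the same with background subtraction added (an alternative chosen after seeing the data), and with no minimum of R squared 43, 64 and 40. The hours of the labels gave 11 in D6, and leaving out 1 library gave 6 to 11. Except where the construction of an alternative shows it, the cause of these differences was not tested. The direction of each other called member was kept under every alternative in which it was tested. With a minimum of 10000 covered T positions, 22 of the 23 called in retained label in D0 were tested. No paired analysis was made, because the replicate numbers run on through the series and do not show whether replicates of different groups were matched.

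The share of transcripts called higher in retained label went with coverage, at 2.62% of all tested and 6.76% of those with at least 10000 covered T positions in D0, and at 0.961% and 3.60% in D6.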
